A study of Homo sapiens with 11 samples.

Results

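The deposited peak list of Z138, an established human mantle cell lymphoma line, holds 482 peaks of wild-type cells against a DNMT3A knockout clone, and 202 of them lie in 4 stretches of hg38. The members were chosen by position: a peak had to lie wholly in chr4:49.00-49.40 Mb, chr17:21.40-21.70 Mb, chr21:7.90-8.50 Mb or chr22:11.80-12.20 Mb. These intervals were selected on this same list, so the number, width, spacing and signal of the peaks are given as a description, with no test. The intervals hold 21 peaks on chromosome 4, 67 on chromosome 17, 29 on chromosome 21 and 85 on chromosome 22, and 280 peaks remain elsewhere.

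The ChIP-seq arm has 1 library from wild-type Z138 with no listed treatment. The other, from clone #7 (sgDNMT3A KO) after 7 days in doxycycline at 2 ng/mL, served as its negative control. The RNA-seq arm has 9 libraries of clone #7, with 3 uninduced, 3 at day 5 and 3 at day 7 of doxycycline at 2 ng/mL. All 9 carry inducible CAS9-RFP and 2 guides against DNMT3A, uninduced cells included, and per the design text each replicate came from its own frozen vial, with its own day of induction. Doxycycline, Cas9, clone and knockout differ together between the ChIP libraries and cannot be told apart, and with 1 library on each side no difference between them was tested. Every knockout value rests on 1 clone, and no antibody is named in the sources used here.

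DNMT3A is a de novo DNA methyltransferase, which adds methyl groups to cytosines that carry none. Ribosomal DNA is a tandem repeat on the short arms of the acrocentric chromosomes, chromosomes 21 and 22 among them. RNA polymerase I copies each repeat into a 45S precursor that is cut into the 18S, 5.8S and 28S ribosomal RNAs, and many copies are silent and methylated. Pericentromeric DNA flanks the centromeres, is rich in satellite repeats and segmental duplications, and is known for dense methylation and heterochromatin. Reads from repeated sequence can fit many places, so the position of such a peak in a reference is less sure than that of a peak in unique sequence.

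RefSeq places ribosomal RNA genes in the chromosome 21 interval and in none of the other 3, and 12 of 12 carried a peak. They are the 45S genes and the 18S, 5.8S and 28S parts nested in them, so they are not 12 separate places. The interval was also selected on this same list. Over all 57 genes of the 4 intervals, 31 carried a peak. No centromere, satellite or repeat annotation was used here, so the pericentromeric position of the intervals on chromosomes 4, 17 and 22 is background and was not checked. No bases of the peaks themselves were read, because no genome sequence was used here. The sequences that could be shown are those of annotated RNAs and promoters that lie under peaks, taken from RefSeq (GRCh38.p14, the same build as hg38).

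The 2 microRNA genes below sit in the ribosomal repeat on the plus strand of chromosome 21 and are shown because the peak with the highest −log10 p of the whole list covers them. MIR6724-4 (chr21:8432530-8432621) lies just before RNA45SN1, and MIR10396B (chr21:8436324-8436374) lies inside it. Capitals mark the seed, bases 2 to 8, which pairs with target messages.
hsa-miR-6724-5p: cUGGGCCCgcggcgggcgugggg
hsa-miR-10396b-5p: cGGCGGGGcucggagccggg
hsa-miR-10396b-3p: gGCCCCGGgcccucgaccggac
No seed is shared between these 3 mature sequences. They hold 91.3%, 90% and 86.4% G and C in the order shown, against a median of 52.2% over all 2370 mature microRNAs of the table, of which 67 are above 80%. The mature miR-6724-5p is also annotated from MIR6724-2 (chr21:8249505-8249596), with the same letters, and that copy has no peak. Of the other MIR6724 genes of the interval, MIR6724-3 lies under a peak and MIR6724-1 does not.

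Among 10 promoter windows of 8 genes in the intervals, from 250 bases before to 50 bases after a start site, 1 overlapped a peak. It belongs to LOC105371589, a long non-coding RNA gene of chromosome 17 whose role is not given here. The window spans chr17:21516995-21517294 on the plus strand, and capitals mark the 123 bases inside the peak chr17:21517172-21517487.
LOC105371589: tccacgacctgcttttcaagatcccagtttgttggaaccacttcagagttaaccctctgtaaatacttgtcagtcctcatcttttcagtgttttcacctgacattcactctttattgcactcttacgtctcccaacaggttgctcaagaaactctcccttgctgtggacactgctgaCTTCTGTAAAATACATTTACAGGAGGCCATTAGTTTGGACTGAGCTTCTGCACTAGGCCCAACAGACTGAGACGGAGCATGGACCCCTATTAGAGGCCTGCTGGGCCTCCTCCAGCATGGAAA
The window holds 47.3% G and C and 3 CpG sites, the dinucleotide that DNMT3A methylates. Both values are of the whole window and not of the bases inside the peak. Over all 35116 windows of the table the medians are 58.7% G and C and 14 CpG sites, and 24.5% of windows hold 3 or fewer. The other window of LOC105371589, chr17:21513313-21513612 at the annotated start of the gene, holds 1 CpG site and has no peak.

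The 202 peaks made up 41.9% of the list by number, 24.0% of its bases and 63.6% of its summed signal. Signal is the total over a peak's bases as the caller wrote it, so it grows with width. Which quantity the caller totalled was not checked, and signal is not taken here as a count of reads. Signal per base is that total divided by the width in bases. Median signal per base was 0.434 on chromosome 4, 0.0983 on chromosome 17, 0.480 on chromosome 21 and 0.159 on chromosome 22, against 0.129 over the 280 remaining peaks. Peaks on chromosomes 4 and 21 thus had a high signal per base and those on chromosome 17 a low one.

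The −log10 p, unadjusted and taken at the summit, ranked the intervals in the same order. Both values were written by the same caller for the same peaks, so the shared order is not separate support. Its median was 3.32 on chromosome 4, 2.23 on chromosome 17, 3.33 on chromosome 21 and 2.41 on chromosome 22, against 2.29 over the remaining peaks. A value of at least 3 was reached by 11 of 21, 0 of 67, 16 of 29 and 4 of 85 peaks on those chromosomes, against 21 of 280 remaining peaks. Of the 10 peaks with the highest −log10 p in the list, 4 lie in the chromosome 21 interval and 2 in the chromosome 4 interval. Of the 10 with the highest signal, 2 are members, both on chromosome 21.

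**Figure D1:**
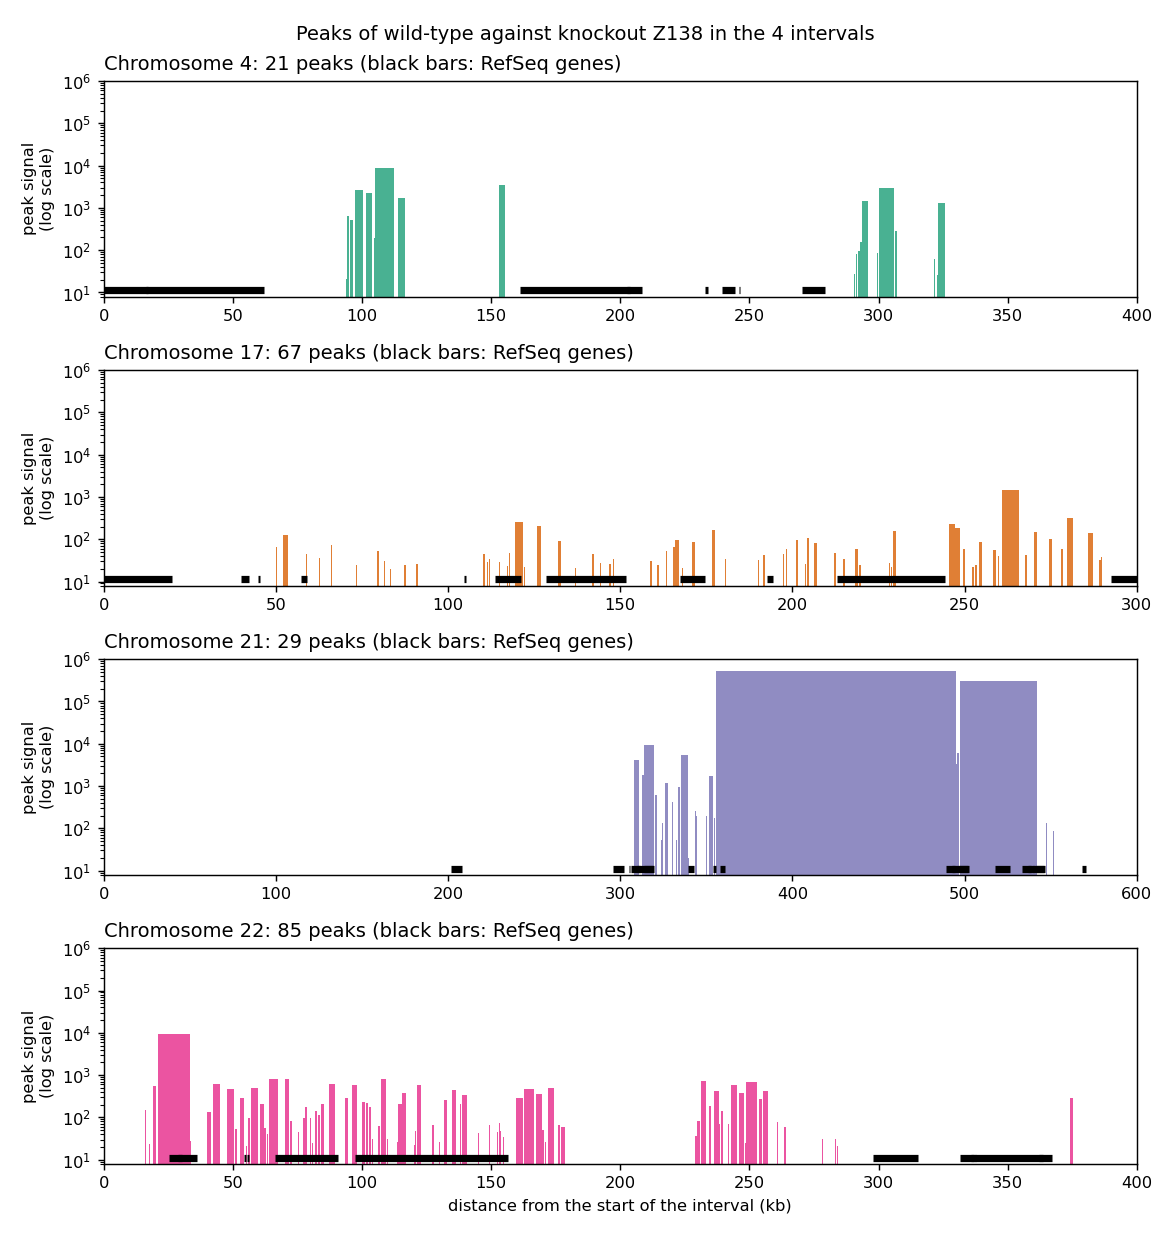
Each bar is a peak of wild-type against knockout Z138, drawn at its place (distance from the interval's start, kb) and width, with its signal as height on a log scale, and black bars are RefSeq genes. The pair of wide blocks on chromosome 21 reach signals of 537725 and 305458, and the highest peak is 8845 on chromosome 4, 1456 on chromosome 17 and 9298 on chromosome 22.

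**Figure D2:**
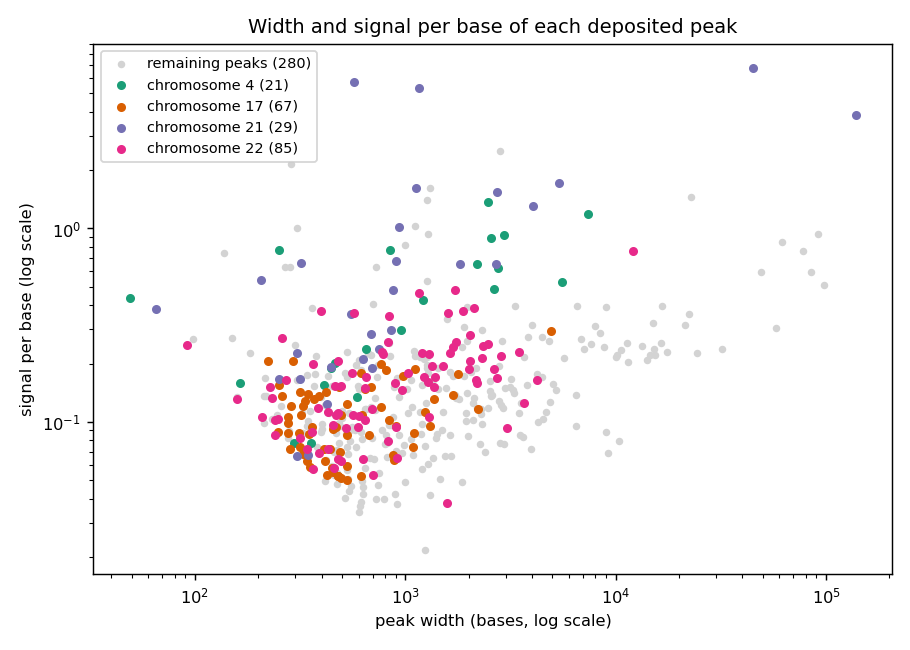
Each point is a deposited peak, by width in bases and signal per base, both on log scales. Chromosome 17 peaks lie between 0.0501 and 0.295 signal per base, and the peaks above 5 are all from chromosome 21.

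The chromosome 21 interval held the ribosomal DNA and 59.5% of the list's summed signal. Its 29 peaks covered 213506 bp, or 35.6% of the 600 kb. The widest, chr21:8255781-8394767, spans 138987 bp with a signal of 537725 and a −log10 p of 12.2. The next, chr21:8397012-8442141, spans 45130 bp with a signal of 305458 and a −log10 p of 21.8. These 2 peaks rank first and second in the list by signal and held 95.8% of the interval's signal and 57.0% of the list's. The other 27 peaks were ordinary in size, with a median width of 689 bp, a median signal of 200.3 and a highest signal of 9270.

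The summit of the widest peak, at position 8392834, lies in RNA18SN3, which encodes the RNA of the small ribosomal subunit. The summit of the other wide peak, at 8432759, lies in no gene and 463 bases before the start of RNA45SN1, on the side where the promoter of a 45S gene lies. Of all 29 summits, 7 lie inside a 45S gene and 22 outside.

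The 3 annotated 45S genes differed in how much of them lay under peaks. RNA45SN3 (chr21:8389035-8402343) was covered over 96.1% of its bases by 4 peaks. RNA45SN2 (chr21:8205988-8219302) was covered over 69.3% by 4 peaks, and RNA45SN1 (chr21:8433222-8446572) over 66.8% by 1 peak. RNA45SN2 lacked peaks over its first part and again in its middle, between the peaks chr21:8207952-8210668 and chr21:8212348-8212412, and RNA45SN1 lacked them over its last part.

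The parts that become mature ribosomal RNA also differed between copies. The 18S part was covered over 55.5% in RNA18SN2, where the gap in the middle begins, 100% in RNA18SN3 and 100% in RNA18SN1. The 28S part, which encodes the large subunit's main RNA, was covered over 98.0% in RNA28SN2, 98.3% in RNA28SN3 and 19.7% in RNA28SN1. The 5.8S part, a short RNA that pairs with 28S, lay wholly under a peak in all 3 copies. Near-identical copies share reads, so the split of signal between them depends on how the authors placed such reads, which is not given in the sources used here.

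**Figure D3:**
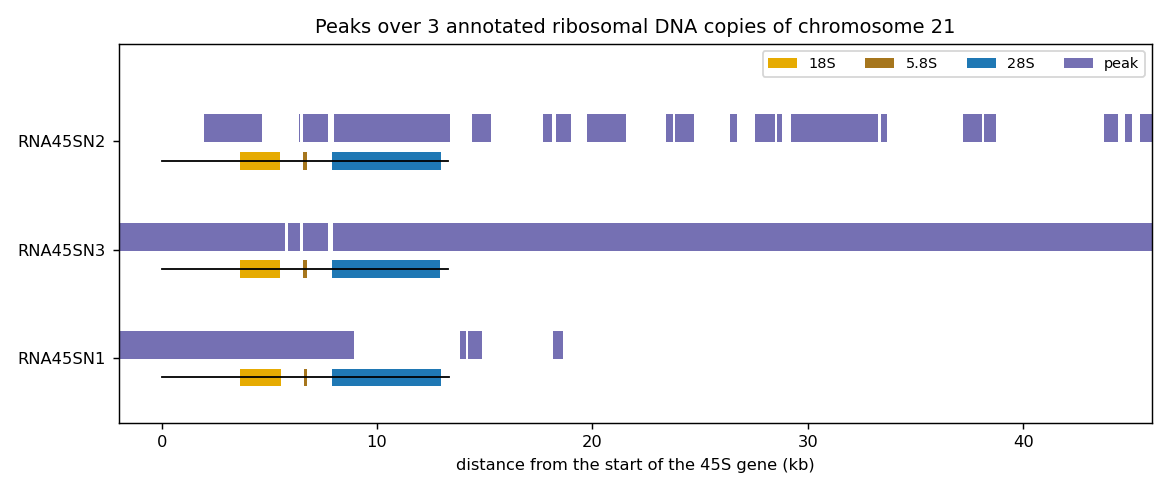
Peaks (upper bars) and the 18S, 5.8S and 28S parts (lower bars on a line for the 45S gene) of 3 ribosomal DNA copies, by distance in kb from the start of each 45S gene. RNA45SN3 lies under peaks over 96.1% of its bases, against 69.3% for RNA45SN2 and 66.8% for RNA45SN1, and the spacer after RNA45SN2 is broken into many peaks.

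Whole repeats were compared from each MIR6724 gene to the next, since that gene precedes each 45S gene. From MIR6724-1 to MIR6724-2 (chr21:8205315-8249504, 44190 bp) 17 peaks covered 48.7% of the bases. From MIR6724-3 to MIR6724-4 (chr21:8388362-8432529, 44168 bp) 4 peaks covered 98.8%. The annotated repeats are thus nearly equal in length, while the first is broken into short peaks across its spacer and the second is almost a single block.

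Pseudogenes of the repeat were covered to different degrees. RNA18SP5, a copy of the 18S gene, lay under peaks over 54.4% of its bases. CDC27P9, in the spacer after RNA45SN2, was covered over 8.43% of its 3844 bp. CDC27P10, in the spacer after RNA45SN3, was covered over 100% of its 8442 bp. The annotated lengths differ, so these shares do not compare like stretches. CDC27P11, after RNA45SN1, had no peak. These are pseudogenes of CDC27, a subunit of the anaphase-promoting complex. Between the pseudogene LOC110467529 and MIR6724-3 the annotation holds no gene for 127431 bp (chr21:8260931-8388361), and all of it lies inside the widest peak. Whether this stretch holds known bases in the reference was not checked. The interval's first peak, chr21:7926170-7926488, stands 281463 bp from the next and has a −log10 p of 4.50.

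The chromosome 4 interval held few peaks, and they were high. Its 21 peaks covered 35232 bp, or 8.81% of the 400 kb, with widths of 49 to 7401 bp and a median of 844 bp. None of the 21 overlapped an annotated gene, a count over neighbouring peaks that are not replicates, so no interval is given. The interval's 9 annotated genes, among them CWH43, which remodels lipid anchors of proteins in yeast, were free of peaks.

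On chromosome 4 the peaks formed 3 runs parted by more than 10 kb. The first run, chr4:49093700-49116568, held 8 peaks over 78.8% of its length. It includes the interval's widest peak, chr4:49104961-49112361, with a signal of 8845 and a −log10 p of 6.96. The second run is 1 peak, chr4:49152919-49155398, with a signal of 3395 and the interval's highest −log10 p, 7.98. The third run, chr4:49290575-49325699, lies 135176 bp further on and held 12 peaks over 42.0% of its length. Signal per base had a median of 0.771 in the first run and 0.196 in the third, and the median −log10 p was 3.64 and 2.55.

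The chromosome 22 interval held the most peaks and a dense array. Its 85 peaks covered 105683 bp, or 26.4% of the 400 kb, with widths of 92 to 12147 bp and a median of 782 bp. Gaps had a median of 778.5 bp, and 50 of 84 gaps were under 1000 bp. The peak with the highest signal, 9298, was also the widest, chr22:11821158-11833304, with a −log10 p of 3.32. Its summit lies in LOC107984037, a long non-coding RNA gene. The highest −log10 p, 3.47, belonged to an isolated peak at chr22:12174264-12175096 with a signal of 293 and no gene.

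Peaks of chromosome 22 crowded at the low-coordinate end of the interval. The first of 4 runs, chr22:11816081-11978694, held 65 peaks over 50.8% of its length. The next, chr22:12028849-12064263, held 16 peaks over 60.3%, and the last 2 runs held 3 peaks and 1 peak. A gene was overlapped by 43 of 85 peaks (50.6%), all in the first run. Long non-coding RNA gene LOC102723769 (chr22:11897406-11956534) met 26 peaks over 37.6% of its bases, and the pseudogene LOC101928041 met 13 peaks over 47.0%.

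The interval on chromosome 22 also holds 2 pairs of nuclear copies of mitochondrial genes, pseudogenes of the cytochrome oxidase subunits COX1 and COX3. MTCO3P33 and MTCO1P33 (chr22:11854462-11856422) mirror MTCO1P34 and MTCO3P34 (chr22:12135934-12137894) about position 11996178, with equal lengths and distances. Peaks covered 55.5% of MTCO1P33 and did not touch the other 3. In all, 65 peaks lie before that position and 20 after it. The mirrored arrangement of the pseudogenes was looked for after the values were seen.

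The chromosome 17 interval held many low, short peaks. Its 67 peaks covered 44929 bp, or 15.0% of the 300 kb, with widths of 222 to 4945 bp, a median of 477 bp and a median signal of 44.8. Gaps were wider than in the other intervals, with a median of 2018 bp and 18 of 66 under 1000 bp. The highest peak by signal, width and −log10 p was the same, chr17:21660956-21665900, with a signal of 1456 and a −log10 p of 2.84, and it overlaps no gene. Equal −log10 p values were common: 26 of the 67 peaks share theirs with another peak of the interval, against 48 of 280 remaining peaks and none in the other 3 intervals. The most frequent value, 2.23, belonged to 5 peaks.

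On chromosome 17 the peaks lie between a pair of potassium channel genes. They span chr17:21449919-21689932, from beyond the end of KCNJ12 at 21419870 to short of the start of KCNJ18 at 21692523, and overlap neither. A gene was overlapped by 19 of 67 peaks (28.4%), all of them long non-coding. LINC02693 (chr17:21528310-21551678) met 6 peaks over 11.5% of its bases, LOC101930665 met 6 over 10.3%, and LOC105371589 met 4 over 36.4%. RPL21P120, a pseudogene of ribosomal protein RPL21, had none.

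The 4 intervals also differed from the remaining peaks in what they overlap. None of the 202 peaks overlapped a protein-coding gene, whereas 114 of 280 remaining peaks (40.7%) did. Any gene was overlapped by 74 of 202 (36.6%), against 217 of 280 (77.5%). The intervals hold 3 protein-coding genes in all, so this follows in part from their position and is a description. A ribosomal RNA gene was overlapped by 8 of 29 chromosome 21 peaks and by 0 of 280 remaining peaks. This too follows in part from position, since the chromosome 21 interval holds the annotated 45S genes. Elsewhere RefSeq also lists ribosomal RNA genes, 33 of them on chromosome 1. The members were also narrower, with a median width of 619 bp against 1179 bp.

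The bounds of the intervals cut through no crowd of peaks. The members nearest to a bound lie 93700 and 74301 bp inside it on chromosome 4, 49919 and 10068 bp on chromosome 17, 26170 and 48145 bp on chromosome 21, and 16081 and 24904 bp on chromosome 22. Their signals ran from 21.3 to 1277. The nearest peaks outside lie 14044 and 41068 kb away on chromosome 4, 5182 kb on chromosome 17, 1825 kb on chromosome 21 and 6693 kb on chromosome 22, with none on the lower side of the last 3. The one outside on chromosome 17, chr17:26882268-26885075, has a signal of 7033 and a −log10 p of 10.00.

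Expression of the genes in the intervals is a readout that the choice of peaks did not use. RefSeq places 57 genes there, 31 with a peak. Of the 57, 18 had a value in the TPM table (a relative level per transcript, scaled to the same sum in each library). Genes were matched by RefSeq symbol, so one listed there under another name counts as without a value. Of the 18, 13 were above 0 in some library, and 8 passed the filter of at least 1 TPM in at least 3 libraries. Among the 8, limma called 0 at day 5 and 0 at day 7 against uninduced cells, and 0 had an unadjusted p under 0.05 at either day. Over all 15045 genes tested, 1 was called at day 5 (0.00665%) and 0 at day 7 (0%), while 300 and 337 had an unadjusted p under 0.05. Next to these shares, 0 of 8 says nothing particular of these genes. In these bulk libraries, fewer cells with an RNA and less of it in each cell cannot be told apart.

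The line showed the markers of its type. Of 8 B cell and mantle cell lymphoma markers, 7 were present, with CCND1 (cyclin D1) at 963 to 1162 TPM, and CD5 was listed at 0 in all 9 libraries. Markers of T and NK cells summed to at most 0.245 TPM, of myeloid cells to at most 0.784 TPM, and of erythroid cells to 0. Those of epithelial cells and fibroblasts summed to 7.08 to 16.1 TPM, nearly all COL1A1, a collagen gene.

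The targeted gene, DNMT3A, had 10.1, 9.71 and 10.4 TPM in uninduced cells, 18.9, 10.9 and 10.04 TPM at day 5 and 10.96, 9.24 and 10.004 TPM at day 7. Replicate 1 at day 5 stood high and the groups overlapped. The log2 fold change was 0.32 (SE 0.21) at day 5 and −0.003 (SE 0.21) at day 7, with adjusted p of 1.00 from limma at both days. Without that day 5 library it was 0.052. Guide-directed cuts change the sequence and need not lower the message, so this level does not check the knockout.

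Genes of 5.8S ribosomal RNA had overlapping levels in all groups. RNA5-8SN1 had 41.8, 48.9 and 67.3 TPM in uninduced cells, 45.6, 49.2 and 48.0 TPM at day 5, and 64.2, 31.5 and 59.1 TPM at day 7. RNA5-8SN2 had 44.7, 57.5 and 75.9 TPM in uninduced cells, 60.4, 59.03 and 64.1 TPM at day 5, and 70.8, 39.8 and 68.03 TPM at day 7. RNA5-8SN3 had 39.997, 51.6 and 66.3 TPM in uninduced cells, 47.6, 55.1 and 53.8 TPM at day 5, and 65.02, 33.2 and 59.9 TPM at day 7. The groups overlapped in each copy, and day 7 replicate 2 was the lowest of the 9 libraries in all 3. A further 5.8S entry, listed as 5_8S_rRNA, had 37.2 to 71.4 TPM over the 9 libraries and was also lowest in day 7 replicate 2.

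The 3 copies moved together across libraries, with Pearson's r of 0.94 to 0.97 over 9 libraries, as a description of copies that share reads. The highest copy was 1.10 to 1.34 times the lowest in each library. Log2 fold changes were −0.12 to 0.08 at day 5 (SE 0.24 to 0.26) and −0.06 to −0.01 at day 7, with limma adjusted p of 1.00 throughout. For RNA5-8SN2 the 95% interval ran from −0.47 to 0.62 at day 5 and from −0.55 to 0.53 at day 7. Changes of up to about that size in either direction thus remain possible. A call is adjusted over all genes tested, so it needs a larger change still. Which copy a read came from is uncertain. The library kit selects polyadenylated RNA, which ribosomal RNA mostly lacks, so these levels are not those of the cell. The 45S, 18S and 28S genes had no value in the table under their RefSeq symbols.

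Among the microRNA genes of the repeat, MIR6724-4 passed the filter, through 1 uninduced library and 2 day 5 libraries of at least 1 TPM and none at day 7, so its day 7 difference is conditioned on that and is a description. It had 1.88, 0.983 and 0.870 TPM in uninduced cells, 0.959, 1.24 and 1.36 TPM at day 5, and 0.893, 0.175 and 0.485 TPM at day 7. The day 7 libraries were low but for one, which fell within the uninduced range, and all 3 lay below the day 5 libraries. The log2 fold change was −0.01 (SE 0.25) at day 5 and −0.56 (SE 0.25, 95% interval −1.13 to 0.006) at day 7, with limma adjusted p of 1.00 at both. Between day 7 and day 5 it was −0.55 (SE 0.25, limma adjusted p of 1.00), in a comparison that called 1 of all 15045 genes (0.00665%). With a pseudocount of 0.1 in place of 1 the day 7 value against uninduced cells was −1.23, with an adjusted p of 1.00 again. Depth is unknown, so the number of reads behind a level near 1 TPM cannot be given.

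The other microRNA genes were lower and not tested. MIR6724-3, also under a peak, averaged 1.14 ± 0.63 TPM in uninduced cells, 0.960 ± 0.22 at day 5 and 0.506 ± 0.26 at day 7 (SD, n = 3 each). MIR3648-1, inside RNA45SN2 and wholly under a peak, averaged 0.233 ± 0.36, 0.187 ± 0.17 and 0.506 ± 0.38 TPM in uninduced cells, day 5 and day 7. MIR6724-1 and MIR6724-2, which have no peak, stayed at or under 0.836 TPM in every library. These copies of a gene share sequence, so their separate levels are uncertain.

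On chromosome 17, LINC02693 is the gene with peaks that has a value in the table. The other 4 genes with peaks there had no value in it under their RefSeq symbols and were not analysed here. LINC02693 had 12.7, 11.9 and 14.1 TPM in uninduced cells, 15.1, 12.5 and 14.2 TPM at day 5, and 13.5, 14.2 and 14.3 TPM at day 7. The groups overlapped, with log2 fold changes of 0.10 (SE 0.12) at day 5 and 0.11 (SE 0.12, 95% interval −0.17 to 0.39) at day 7 and limma adjusted p of 1.00 at both. Its 6 peaks, 11.5% of the gene, thus came with no change that could be detected after induction.

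The remaining 3 tested genes carry no peak and complete the 8. RPL21P120 averaged 58.1 ± 8.4 TPM in uninduced cells, 59.5 ± 2.2 at day 5 and 57.3 ± 5.9 at day 7 (SD, n = 3 each). KCNJ12, an inward rectifier potassium channel gene, averaged 18.4 ± 3.2, 17.9 ± 3.9 and 17.5 ± 2.0 TPM in the same order, and its close paralog KCNJ18 averaged 5.41 ± 1.4, 4.56 ± 1.2 and 4.87 ± 0.92 TPM. These paralogs and the pseudogene share sequence with other genes, so their levels may be split between copies. On chromosome 4, MTND3P22 was the gene above 0, at 0.0936 TPM in 1 library. No gene of the chromosome 22 interval had a value in the table under its RefSeq symbol.

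**Figure D4:**
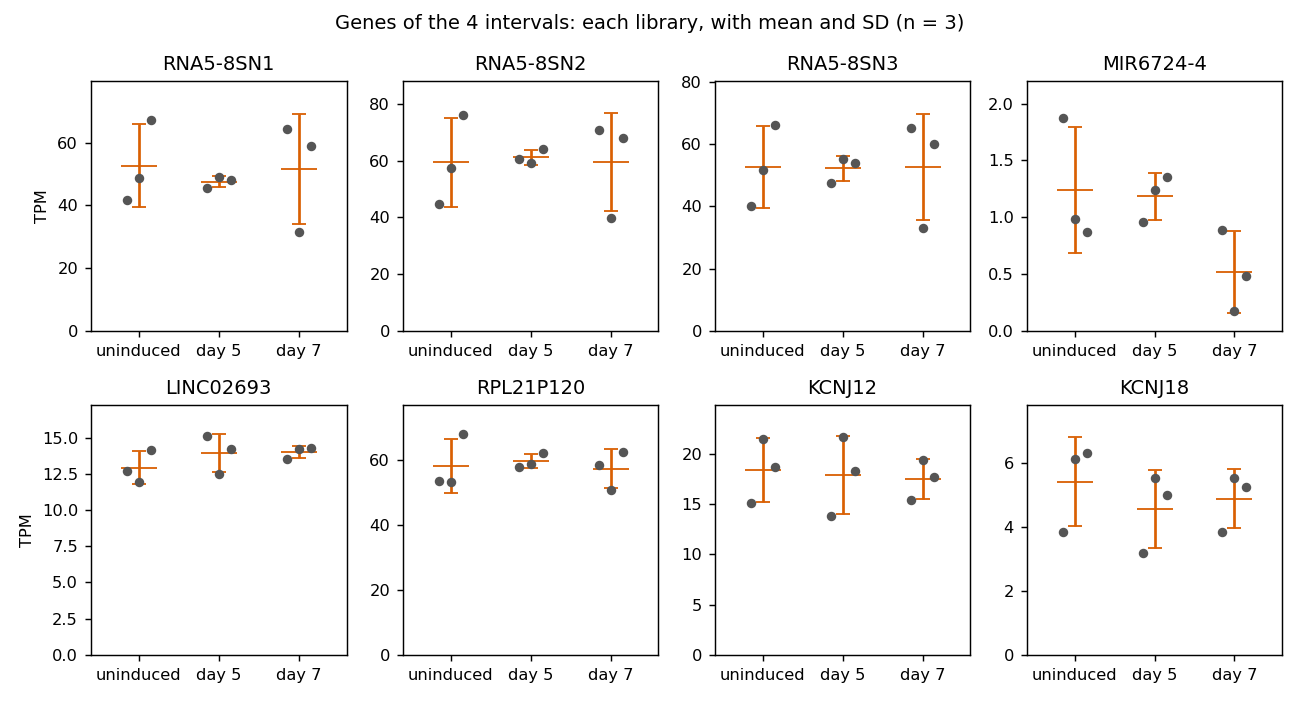
TPM of the 8 tested genes of the intervals in uninduced, day 5 and day 7 cells, with each library as a point and the mean and SD (n = 3) as lines. Each induced group overlaps the uninduced one in every panel, and MIR6724-4 is lowest at day 7, at 0.175 to 0.893 TPM.

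Genes that transcribe ribosomal DNA gave counts near the background. Of 35 genes of RNA polymerase I transcription and ribosomal DNA chromatin, 35 were tested and 0 were called in either direction at either day, with 0 at an unadjusted p under 0.05. Over all genes 0.00665% and 0% were called at day 5 and day 7, and 1.99% and 2.24% had an unadjusted p under 0.05. At day 5, 13 were higher and 22 lower (median log2 fold change −0.02, as over all genes, −0.02), and at day 7, 17 were higher and 18 lower (median −0.002, against −0.02 over all genes). The 2 with the smallest p at day 7 were POLR2K, a subunit shared by all 3 nuclear RNA polymerases, and ZNRD1, a subunit of RNA polymerase I. POLR2K had a log2 fold change of 0.17 (SE 0.18) and ZNRD1 of −0.16 (SE 0.18) at day 7, with limma adjusted p of 1.00.

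Genes of pericentromeric heterochromatin gave a like count. All 35 were tested and 0 were called at either day, next to 0.00665% and 0% over all genes. An unadjusted p under 0.05 was found for 0 at day 5 and for 1 (2.86%) at day 7, next to 1.99% and 2.24% over all genes. At day 5, 12 were higher and 23 lower (median −0.02, as over all genes, −0.02), and at day 7, 12 were higher and 23 lower (median −0.04, against −0.02 over all genes). The 1 gene was MBD1, which binds methylated DNA, with 68.8, 82.2 and 60.04 TPM in uninduced cells, 56.4, 68.1 and 54.2 TPM at day 5, and 56.7, 56.4 and 50.4 TPM at day 7. Its day 7 libraries all lay under the uninduced ones, with a log2 fold change of −0.35 (SE 0.14) and a limma adjusted p of 1.00. The next, MBD2, a reader of the same kind, had 0.24 (SE 0.14).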

How the data were processed

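Per the submitters' processing notes, the tools included HISAT2 2.1, StringTie 1.3.4 and Genrich 1.0, with the build hg38 and no roles given. The authors deposited 1 peak list of wild-type against knockout, with a 0 to 1000 score, a signal and the −log10 of an unadjusted p-value per peak, all as their caller wrote them. In 482 of 482 peaks the score equals 1000 times signal over width, up to 1000 (tolerance 1). The smallest signal is 20.2, the smallest −log10 p 2.07 and the smallest gap 101 bp. The q-value column holds −1 throughout and was not used. The authors also deposited a TPM table of 60656 rows, in which each library sums to 1000000, so depth is unknown, and 21590 to 22895 genes per library were above 0. Its day 0 columns were taken as the uninduced libraries, by replicate number.

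Peaks were taken by position and compared with RefSeq gene spans (at least 1 shared base) in Python 3.11.15. Runs are peaks less than 10000 bp apart. The limma package (3.58.1, under R 4.3.3) was run on log2(TPM + 1), which understates changes of low genes, over 15045 genes with at least 1 TPM in at least 3 libraries. The fit held 3 groups with a trended variance, and a gene was called at a Benjamini-Hochberg adjusted p under 0.05. The code was tested on simulated data. The p-values rest on the spread between 3 inductions of 1 clone, each a pool of technical duplicates. Of 70 list members, 3 were matched by an older symbol. Named peaks are the highest by signal, width and −log10 p in each interval. Named genes are DNMT3A, expressed genes with a peak, and in each list those called and the 2 with the smallest p at day 7, while other genes were named after their values were seen. The members and lists were chosen with earlier results of these data known. The planned description of peak sequence was not run, since no genome was used here.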

Additional observations from a re-analysis of the deposited data

How the results depend on the processing

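Keeping only peaks with a −log10 p of at least 3 left 11 peaks on chromosome 4, 0 on chromosome 17, 16 on chromosome 21 and 4 on chromosome 22. Median widths became 2554, 1142 and 1476 bp on chromosomes 4, 21 and 22, and median gaps 1294, 1025 and 73882 bp, while chromosome 17 gave none. Joining peaks under 1000 bp apart gave 8, 49, 11 and 35 peaks on chromosomes 4, 17, 21 and 22, with median widths of 4839, 646, 1511 and 2478 bp and median gaps of 6693, 2828.5, 2873 and 2040 bp. These moves follow from dropping or merging peaks. Widening the intervals by 100 kb, or counting any overlap, changed no count. The share of peaks over a gene was 0%, 28.4%, 41.4% and 50.6% on chromosomes 4, 17, 21 and 22. With at least 50% of a peak in genes it was 0%, 26.9%, 31.0% and 47.1%. At the stricter threshold it was 0%, 56.25% and 50% on chromosomes 4, 21 and 22, with no peak left on chromosome 17. Sequence alternatives were not run, since no genome was used here.

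Over all genes, limma called 3 at day 5 and 1 at day 7 with no filter on low values, and 4 at day 7 with only the 2 groups compared in the fit. Leaving out each library in turn gave 1 to 3 calls at day 5 and 0 to 3 at day 7. At day 5 the count moved by over 1.5 times without uninduced replicate 1, 2 or 3 or day 5 replicate 1 or 3. At day 7 it moved without uninduced replicate 1, day 5 replicate 1 or 3, or day 7 replicate 1. The cause was not tested. With the replicate number as a block, 1 gene was called at day 5 and 0 at day 7, and 771 and 899 genes had an unadjusted p under 0.05. Same-numbered libraries had correlated deviations of 0.08 to 0.44 (8 of 9 over 0.1) and others of −0.41 to 0.19. In 16 of 18 comparisons a library correlated best with its own number, a hint from the data. The design text gives each replicate its own vial and induction day but does not state that a number marks the same vial in every group, so the fit without the block is the one reported.

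For DNMT3A and the 8 interval genes, 0 of 268 alternative fits gave a call, with a smallest adjusted p of 0.824, and 240 kept the direction. Many of the 240 could not have turned. Another filter, the block or a fit of only the 2 groups compared leaves a fold change as it was. So does leaving out a library of the other induced group. Quantile normalization turned 4 uncalled changes to the other sign, to 0.033 for MIR6724-4 at day 5, and to 0.028 for DNMT3A, 0.0052 for RPL21P120 and 0.013 for RNA5-8SN2 at day 7. Signs also turned when single libraries were left out, over these ranges: at day 5, −0.18 to 0.12 for KCNJ12, −0.016 to 0.16 for RPL21P120, −0.11 to 0.27 for RNA5-8SN2, −0.16 to 0.19 for RNA5-8SN3, −0.27 to 0.071 for RNA5-8SN1 and −0.13 to 0.18 for MIR6724-4. At day 7 they were −0.060 to 0.052 for DNMT3A, −0.19 to 0.052 for KCNJ12, −0.31 to 0.021 for KCNJ18, −0.081 to 0.098 for RPL21P120, −0.19 to 0.25 for RNA5-8SN2, −0.21 to 0.27 for RNA5-8SN3 and −0.25 to 0.25 for RNA5-8SN1. MIR6724-4 at day 7 kept its sign in every fit that tested it, at −0.74 to −0.37 with a library left out and −1.23 with a pseudocount of 0.1. It passed the filter through uninduced and day 5 libraries alone, which favours a lower day 7 value. The kept sign is thus a description and not a sign of a steady effect.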
